A study of Mus musculus with 7 samples.

Results

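Wild-type mouse skin after 6 days of topical 4OHT was compared with wild-type skin at day 0. Of the 7 Affymetrix Mouse Gene 1.0 ST arrays of the series, 3 belong to this comparison by their titles. Day 0 is 1 array, and day 6 is 2 arrays, called replicates 1 and 2. The other 4 arrays are Iqgap1 knockout tissue, 2 at day 0 and 2 at day 6. The Iqgap1 protein is a scaffold on which kinases of the Ras-ERK pathway assemble. All 7 arrays carry the same labels for strain (a mixed C57BL/6 and 129 background) and agent (topical 4OHT), day 0 included. 4OHT, or 4-hydroxytamoxifen, is a ligand used to switch on proteins that have been fused to a modified oestrogen receptor. The labels used here name no such transgene, no promoter and no age, and they call the sample mouse tissue. They do not say whether the arrays of a group came from separate mice. The wild-type day 6 arrays differ in their Xist and Y-linked signal, given below, and so do not come from the same mouse. For the knockout pairs the spread that enters each p-value may be technical. A single day 0 array has no spread of its own. Its error was borrowed from the groups with 2 arrays, and both day 6 arrays are therefore given separately throughout. Among these groups the knockout pairs were tighter than the wild-type pair, as given below.

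In the epidermis, basal keratinocytes divide on a sheet of laminin and collagen and make Krt5 and Krt14. Cells that leave this layer turn to Krt1 and Krt10 and then cross-link loricrin, involucrin, small proline-rich (Sprr) and late cornified envelope (Lce) proteins into a tough shell. Injured or growth-stimulated keratinocytes make a further set of keratins, Krt6 and Krt16, together with the alarmins S100a8 and S100a9 and antimicrobial defensins. Hair follicles alternate between growth and rest. In a growing follicle, matrix cells form the hair shaft, built of hair keratins and keratin-associated proteins (Krtap), and the inner root sheath around it, while melanocytes load the shaft with pigment. In a resting follicle these programmes are off.

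Skin markers were high on every array. The lowest and highest log2 values over the 7 arrays were 12.14 and 12.79 for Krt5, 10.45 and 11.17 for the basal transcription factor Trp63, 11.14 and 12.56 for Krt10 and 11.95 and 12.64 for the dermal proteoglycan Dcn. Muscle RNA was present as well, since Ckm, the muscle creatine kinase, lay between 10.90 and 12.88. The wild-type day 0 array and day 6 replicate 1 had a signal of Xist, which coats the inactive X chromosome (11.15 and 10.30), and none of Uty, Kdm5d and Eif2s3y, which are Y-linked. The other 5 arrays showed the reverse. Where Xist or these Y-linked genes were absent, their values lay between 3.50 and 4.25, which serves as a guide to the level of a silent gene. Those 2 arrays with Xist also had the smallest SD of values across probe sets, 2.39 and 2.40 where the rest had 2.45 to 2.49.

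At day 6, wild-type skin had gained cornified envelope, stress keratin, defensin, matrix protease and glycolysis genes and had lost hair shaft, inner root sheath, pigment, muscle and fat genes. Of 19937 genes tested, 699 rose (3.51%) and 719 fell (3.61%) at an adjusted p under 0.05 in limma, and 4064 had an unadjusted p under 0.05. Both day 6 arrays lay on the called side of the day 0 array for all 1418 called genes (7.11%); of all genes, 33.7% had both day 6 arrays above day 0 and 34.8% had both below. Without day 6 replicate 1 the rises came to 1272 and the falls to 937; without replicate 2 they came to 529 and 641. At least 2-fold differences in both day 6 arrays were found for 587 of the genes that rose and 635 of those that fell. Counted without a test, 729 genes (3.66%) were at least 2-fold higher in both day 6 arrays and 804 (4.03%) at least 2-fold lower. The median log2 difference over all genes was 0.00 (0.05 in replicate 1 and -0.06 in replicate 2).

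The knockout arrays, which share no array with this comparison, had 1443 rises (7.24%) and 1808 falls (9.07%) from day 0 to day 6. Of the 699 genes that rose in wild type, 375 also rose in knockout, which is 53.6% of the wild-type and 26.0% of the knockout rises. Of the 719 that fell, 307 also fell in knockout, 42.7% of the wild-type and 17.0% of the knockout falls. The day change itself differed between the genotypes, by a contrast of the 2 changes in the same limma fit, for 73 of the genes that rose (10.4%) and 236 of those that fell (32.8%). These genes were chosen by the wild-type change, which is part of the contrast, so the selection itself raises both shares. Over all genes tested, 269 changed more upwards in wild type (1.35%) and 350 more downwards (1.76%), 3.10% in all. These counts depended on single arrays: they were 15 and 128 without knockout day 6 replicate 1, 72 and 165 without its replicate 2, 112 and 173 without knockout day 0 replicate 1, and 114 and 209 without its replicate 2. Without wild-type day 6 replicate 1, 528 genes changed more upwards. Of 45 genes named in the text whose difference was called, 26 lost the call without knockout day 6 replicate 1, 21 without its replicate 2 and 18 without either knockout day 0 array; where this holds for a gene, the highest adjusted p with any 1 array left out follows its value. The knockout rises came to between 520 and 838, and its falls to between 789 and 1342, when any 1 knockout array was left out.

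The wild-type day 0 array lay apart from the rest for part of the genes. It lay at least 2-fold above all 6 other arrays for 294 of the 719 genes that fell (40.9%), while 1.60% of all genes did so. It lay at least 2-fold below all 6 for 213 of the 699 genes that rose (30.5%, against 1.21% of all genes). A called gene has both day 6 arrays on the same side of day 0, so the selection itself raises these shares. No such count was made for any other array. Without the genes apart from all 6 arrays, 486 rises and 425 falls were left. Set against both knockout day 0 arrays alone, it lay at least 2-fold above them for 4.85% and below them for 8.03% of all genes. This array cannot be left out, because it is the only wild-type day 0 array, and its place among wild-type mice at day 0 cannot be told from 1 array. The knockout day 0 arrays are the only other day 0 measurement. Their values are given for the named genes that rose from a wild-type day 0 value at least 2-fold below all other arrays, and for examples among the rest. The wild-type day 0 array has the Xist signal and the knockout arrays do not. Genotype and sex signal therefore cannot be told apart at day 0, nor in the differences between genotypes that rest on it.

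**Figure D1:**
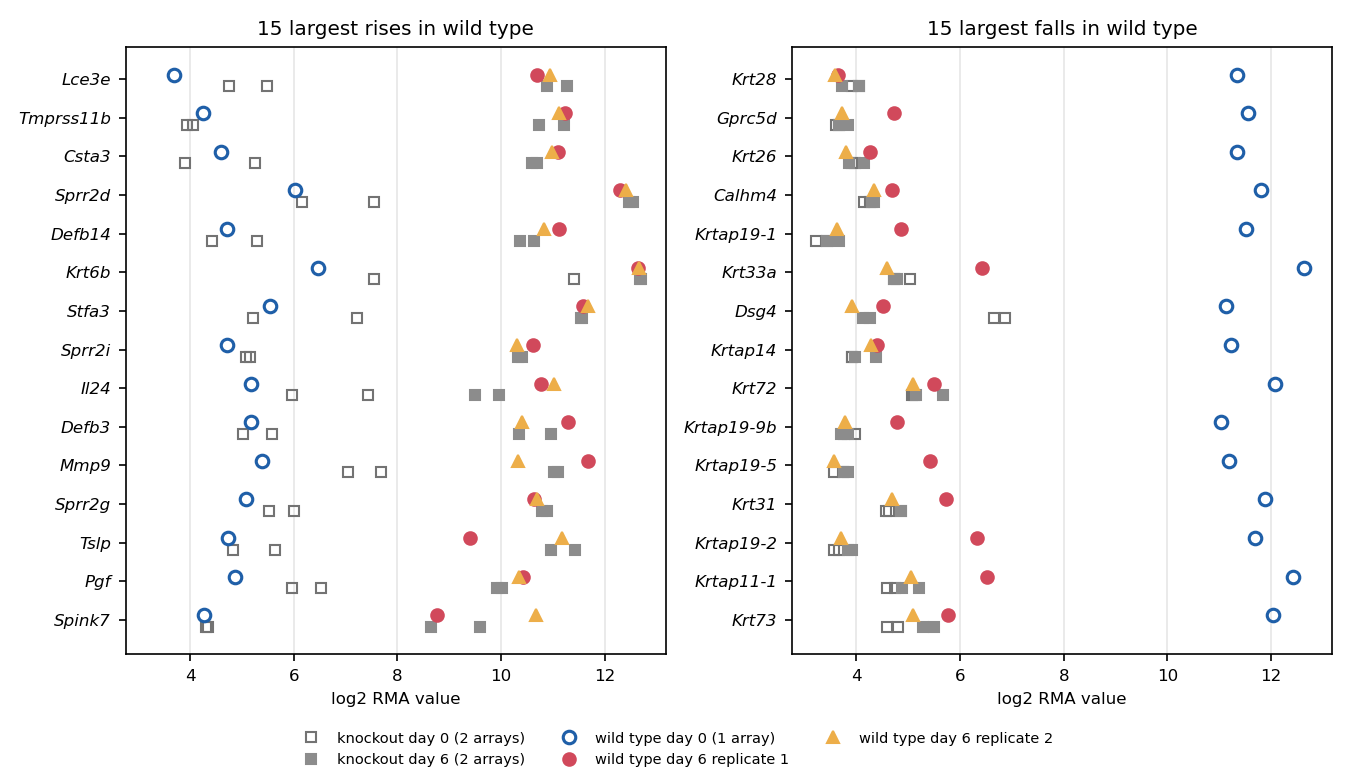
Log2 RMA values on all 7 arrays (horizontal axis) of the 15 genes with the largest rises (left) and the 15 with the largest falls (right) in wild type. Open blue circles are the single wild-type day 0 array, red circles and yellow triangles the wild-type day 6 replicates, and open and filled grey squares the knockout arrays at day 0 and day 6. For 14 of the 15 rises, knockout also rose; Krt6b was already high on 1 knockout day 0 array. For the falls the wild-type day 0 array alone is high.

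The 15 largest rises were genes of the cornified envelope, stress keratins, proteases and their inhibitors, defensins and secreted factors. They rose by 5.46 to 7.13 on the log2 scale, and 14 of the 15 also rose in knockout; the other was Krt6b. Lce3e, a late cornified envelope gene, was at 3.69 on the day 0 array, in the range of silent genes, and at 10.69 and 10.95 on day 6 replicates 1 and 2. This is a rise of 7.13 ± 0.34 (SE), or 140-fold, with an adjusted p of 0.000142, and both knockout day 0 arrays were also low (4.75 and 5.48). Tmprss11b, a membrane serine protease of squamous epithelia, went from 4.24 to 11.24 and 11.12 (6.94 ± 0.25, adjusted p 7.48e-05) and changed by 6.97 in knockout. The 2 day 6 arrays lay within 0.3 of each other for both genes, far above day 0.

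Csta3 and Stfa3, cystatin-type inhibitors of cysteine proteases, rose by 6.43 ± 0.49 and 6.09 ± 0.69. The beta-defensins Defb14 and Defb3, which kill microbes, rose by 6.27 ± 0.37 and 5.67 ± 0.44. Krt6b was at 6.47 on the day 0 array and at 12.64 and 12.65 at day 6 (6.17 ± 1.29, adjusted p 0.0374). The 2 knockout day 0 arrays differed widely in Krt6b, 7.54 against 11.40, and the call was lost without either wild-type day 6 array (adjusted p 0.0848 without replicate 1 and 0.117 without replicate 2) or either knockout day 6 array (0.0666). Among secreted factors, Il24, a cytokine of the interleukin-10 family, went from 5.17 to 10.77 and 11.02, Tslp, an epithelial cytokine that acts on dendritic cells, from 4.73 to 9.39 and 11.17, and Pgf, a placental growth factor related to Vegfa, from 4.86 to 10.42 and 10.35 (knockout day 0 at 5.97 and 6.53). The 2 day 6 arrays agreed closely for Il24 and Pgf but differed by more than 3-fold for Tslp, with replicate 2 the higher. Spink7, a serine protease inhibitor, showed the same order, at 4.27 on day 0 and 8.77 and 10.68 on day 6. Of the 15, the difference between genotypes was called for Pgf, which rose by 5.52 ± 0.26 in wild type and by 3.72 in knockout (adjusted p of the difference 0.0414, up to 0.132 with 1 array left out).

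The small proline-rich genes lie in 1 cluster and many rose together, so the upstream sequence of a pair of them, chosen because both hold the motif described next, is shown. The windows come from RefSeq's genes of GRCm38.p6, and each sequence is the 250 bases before the start site, 5′ to 3′ on the gene's strand. They are chr3:92338890-92339139 (plus strand) for Sprr2d and chr3:92407741-92407990 (plus strand) for Sprr2i. Capitals mark matches to TGANTCA, the letters bound by AP-1 factors, searched on both strands.
Sprr2d: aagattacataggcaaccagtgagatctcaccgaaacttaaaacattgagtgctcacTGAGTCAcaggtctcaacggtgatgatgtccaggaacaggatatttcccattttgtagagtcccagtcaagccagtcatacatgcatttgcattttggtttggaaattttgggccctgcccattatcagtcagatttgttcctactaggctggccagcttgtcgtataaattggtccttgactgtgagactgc
Sprr2i: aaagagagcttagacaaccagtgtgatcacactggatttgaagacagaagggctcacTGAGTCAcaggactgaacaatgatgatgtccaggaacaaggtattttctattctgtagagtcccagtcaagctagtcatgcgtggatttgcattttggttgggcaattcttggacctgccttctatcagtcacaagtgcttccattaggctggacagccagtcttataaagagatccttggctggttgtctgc
The match begins 193 bases before the start site in both, and 174 of 250 positions (69.6%) hold the same base in both sequences without gaps. Over windows of 300 bases (250 before and 50 after the start site), TGANTCA was found in 7.81% of all 32851 windows, 6.90% of the windows of tested genes, 11.5% of the 689 windows of genes that rose and 8.68% of the 668 windows of genes that fell. Of the 9 windows found for the 15 largest rises, 3 held it, and those of Lce3e, Tmprss11b, Csta3, Defb3 and Pgf did not. A match describes letters and not binding, and its part in these changes was not tested.

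Genes of the cornified envelope rose as a group. Of 13 measured small proline-rich and involucrin genes, 9 rose and 0 fell, with a median difference of 2.65 (2.40 in replicate 1 and 2.59 in replicate 2), beside 0.00 over all genes; in knockout 10 rose, with a median of 4.16. Sprr2d went from 6.03 to 12.30 and 12.40 (6.32 ± 0.50), Sprr2i from 4.71 to 10.61 and 10.31 (5.75 ± 0.21) and Sprr2g from 5.08 to 10.63 and 10.69 (5.58 ± 0.24). All 3 were far above day 0 on both day 6 arrays. Sprr2f rose by 4.00 ± 0.22, less than in knockout (5.48, adjusted p of the difference 0.0442, up to 0.154 with 1 array left out), and its wild-type day 0 value of 6.89 lay above the knockout day 0 values of 5.33 and 5.70. Ivl, which encodes involucrin, was already at 11.54 on day 0 and at 10.86 and 11.45 on day 6.

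Of 18 measured late cornified envelope genes, 10 rose and 0 fell, with a median of 1.81 (2.20 and 1.51 in replicates 1 and 2), against 9 rises and a median of 1.07 in knockout. The Lce3 members moved most. Lce3a went from 5.18 to 10.44 and 10.24 (5.16 ± 0.21), Lce3f from 3.48 to 7.97 and 8.72 (4.86 ± 0.31) and Lce3b from 4.47 to 7.20 and 8.05 (3.15 ± 0.37). The day 6 arrays did not come near the day 0 value for any of these genes. Members of the Sprr2, Lce3, Stfa, Defb and Krtap families are near-identical copies that can share probes, so the value of a single member is uncertain to that extent.

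Among 20 measured stress keratins and alarmins, 12 rose and 0 fell, with a median of 4.00 (3.92 and 3.86), and 16 rose in knockout, with a median of 4.30. Krt16, the stress keratin that pairs with Krt6, went from 8.05 to 12.52 and 12.66 (4.54 ± 0.67, adjusted p 0.0111, or 0.0530 without day 6 replicate 2), with knockout day 0 at 9.59 and 11.53. S100a8 went from 7.48 to 11.98 and 11.65 (4.33 ± 0.47) and its partner S100a9 from 8.20 to 12.14 and 11.75 (3.74 ± 0.46). Stfa2 rose by 4.91 ± 0.45 and Krt6a by 1.27 ± 0.24, a call lost without day 6 replicate 2 (adjusted p 0.0669). S100a7a did not follow them, since it was already at 10.21 on the wild-type day 0 array and at 9.86 and 10.01 on day 6, whereas the knockout arrays went from 5.87 and 5.49 to 9.56 and 9.98. Its day change differed between the genotypes by -4.37 (adjusted p 0.00197).

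Earlier steps of differentiation gave a mixed picture. Of 21 measured suprabasal genes, 8 rose and 2 fell, with a median of 0.78 (0.82 and 0.92). The rises included Rptn, a cornified envelope gene of the S100-fused type (2.57 ± 0.33), and Dsg1b, a desmosomal cadherin (1.61 ± 0.21, from 9.99 to 11.52 and 11.68). Krt77, a suprabasal keratin known from sweat ducts and mouse interfollicular epidermis, fell from 12.02 to 6.46 and 5.98 (-5.80 ± 0.31, a 55.8-fold drop) and fell by 6.58 in knockout, so that both genotypes lost nearly all of its signal. The other gene that fell, Tchh, belongs to the inner root sheath and is described there. The day 6 arrays disagreed on Krt1, which was at 10.39 on day 0 and at 9.49 and 12.10 on day 6, and to a lesser degree on Krt10 (11.81, then 11.14 and 12.33); neither passed the test.

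Most basal keratinocyte genes rose. Of 16 measured, 9 rose and 1 fell (Krt15), with a median of 1.14 (1.24 and 1.17) against 0.26 in knockout, and the difference between genotypes was called upwards for 5 (1.35% of all genes). Lamb3, a chain of laminin-332, went from 7.61 to 11.33 and 10.71 (3.41 ± 0.28), Itgb4, the integrin that binds this laminin, from 8.76 to 10.74 and 10.80 (2.01 ± 0.18), and its partner Itga6 from 10.21 to 11.71 and 11.77 (1.53 ± 0.19). The knockout day 0 arrays were already at 9.64 and 9.82 for Lamb3, 10.61 and 10.70 for Itgb4 and 11.40 and 11.54 for Itga6, above wild-type day 0 for all 3. Lamb3 still rose in knockout, by 0.95 (adjusted p 0.0342), while the knockout changes of Itgb4 (0.37) and Itga6 (0.21) did not pass. The hemidesmosome collagen Col17a1 rose by 1.47 ± 0.20 from 9.19, and its knockout change was -0.45 from 11.23 and 11.41. With 1 array left out the adjusted p of the difference reached 0.0950 for Lamb3 and Itgb4, 0.148 for Itga6 and 0.0769 for Col17a1. Krt14 rose by 1.03 ± 0.19, from 11.71 to 12.68 and 12.79, a call lost without any of the 4 knockout arrays (adjusted p up to 0.0571) or day 6 replicate 2 (0.0504). The mean of the 16 genes was 9.21 on the wild-type day 0 array and between 10.17 and 10.50 on the other 6. On the same array the hair lists described below were high, and the part of that difference in the basal rises was not tested.

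Of 16 measured barrier lipid genes, 7 rose and 1 fell, with a median of 0.96 (0.94 and 1.08). Degs2, an enzyme that makes phytoceramides, went from 6.29 to 11.30 and 11.50 (5.11 ± 0.19, adjusted p 9.26e-05), with a change of 4.44 in knockout. Alox12b and Aloxe3, the lipoxygenases that act in turn on barrier ceramides, rose by 2.77 ± 0.20 and 3.39 ± 0.36. Both changed more than in knockout (0.65 and 0.50; adjusted p of the difference up to 0.0702 and 0.0935 with 1 array left out), where day 0 lay at 11.15 and 11.29 for Alox12b, above the 8.95 of wild type, and at 9.89 and 10.18 for Aloxe3, above the 6.67 of wild type. Of 14 measured cholesterol synthesis genes, 0 passed limma's test in wild type, 7 had an unadjusted p under 0.05, and 10 rose in knockout. Lss, a sterol cyclase, was at 8.90 on day 0 and at 9.80 and 10.89 on day 6, a difference of 1.44 ± 0.41 beside 1.36 in knockout.

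The EGF receptor and Ras-ERK cascade passes growth signals from the ligands through Ras, Raf and MEK to ERK, which drives target genes and its own inhibitors. Of 8 measured EGF family ligands, 1 rose. Hbegf, the heparin-binding ligand, went from 8.50 to 11.38 and 11.76 (3.07 ± 0.39, adjusted p 0.00618), with knockout day 0 at 9.54 and 10.42. Tgfa was at 8.64 and then at 9.77 and 10.41 (1.45 ± 0.37, adjusted p 0.0659). Of 6 receptors and inhibitors 0 passed limma's test, and 0 had an unadjusted p under 0.05; Egfr was at 10.47 and then at 9.95 and 10.48. Iqgap1 itself was at 9.94 on day 0 and at 10.11 and 10.59 on day 6 (0.41 ± 0.24, adjusted p 0.429). The knockout arrays still had Iqgap1 signal, at 9.02 and 8.99 on day 0 and at 8.58 and 8.67 on day 6. These values lay below wild type but far above the silent level of 3.50 to 4.25, and the reason was not tested. In wild type, the relatives Iqgap2 (0.47 ± 0.38) and Iqgap3 (0.59 ± 0.58) did not pass either. Day 6 replicate 2 was the higher wild-type array for all 3 genes.

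Within the cascade, 2 of 13 measured genes rose: Map2k1, which encodes MEK1 (1.15 ± 0.22), and the scaffold Ksr1 (1.10 ± 0.21, from 6.62, with knockout day 0 at 8.91 and 8.58). Among feedback inhibitors of ERK, 3 of 13 rose and 1 fell. Dusp6, a cytoplasmic ERK phosphatase, went from 10.15 to 11.03 and 11.41, Spry2 from 7.28 to 8.80 and 8.31 and Spred3 from 5.60 to 7.34 and 8.78, while Dusp8, a phosphatase that prefers stress kinases, went from 8.40 to 7.40 and 6.94. Each of these 6 calls was lost when either knockout day 6 array was left out. Leaving out either array of a knockout pair gives the same wild-type result. The wild-type differences stay as they are, and only the error estimate loses a residual degree of freedom. Leaving out either knockout day 0 array lost 4 of them, with an adjusted p up to 0.0792, day 6 replicate 2 lost 4, up to 0.0720, and day 6 replicate 1 lost Spry2 (0.0545). The 11 genes of ERK transcriptional output moved further, with 6 rises, 0 falls and a median of 1.36 (1.16 and 1.53), beside 5 rises, 2 falls and 0.72 in knockout. Hmga2, a chromatin protein, went from 6.80 to 10.63 and 10.52 (3.77 ± 0.22, adjusted p 0.000232) and by 3.18 in knockout. Phlda1 rose by 1.83 ± 0.20, Ier3 by 1.64 ± 0.24 and Ccnd1, which encodes cyclin D1, by 1.36 ± 0.22. Fosl1, a partner in AP-1, rose by 1.01 ± 0.20 in wild type and fell by 0.92 in knockout, where day 0 was at 10.70 on both arrays against 9.02 in wild type. Its wild-type call was lost without either knockout day 0 array (adjusted p 0.0735), either knockout day 6 array (0.0642) or day 6 replicate 2 (0.0575), and that of the difference reached 0.0833. Of 18 immediate-early genes 0 rose and 2 fell, Fosb (from 9.48 to 6.58 and 6.50) and Atf3 (from 10.15 to 8.47 and 7.67); Atf3 lost its call without day 6 replicate 2 (adjusted p 0.0594) and without either knockout day 6 array (0.0515). In knockout 9 of the 18 fell.

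Matrix proteases and their inhibitors had 9 rises and 0 falls among 18 measured, with a median of 2.57 (3.11 in replicate 1 and 1.93 in replicate 2) against 0.46 in knockout, where 5 rose and 5 fell. Mmp9, a gelatinase, went from 5.38 to 11.68 and 10.32 (5.62 ± 0.53), the collagenase Mmp13 from 5.11 to 11.29 and 9.51 (5.29 ± 0.94) and the interstitial collagenase Mmp1a from 4.01 to 9.68 and 8.88 (5.27 ± 0.42). Replicate 1 was the higher array for all 3. The knockout day 0 arrays were at 7.05 and 7.69 for Mmp9. Plau, the urokinase protease, rose by 3.11 ± 0.39 from 7.29, with knockout day 0 at 8.31 and 9.30. For 4 of the 18 genes the wild-type day 0 array lay at least 2-fold below all other arrays. Mmp3, or stromelysin, rose by 3.47 ± 0.60 from 7.51, while both knockout day 0 arrays were already at 10.27 and 10.76; the difference between genotypes did not pass (adjusted p 0.0700).

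Glycolysis and hypoxia genes had 11 rises and 0 falls among 20, with a median of 1.36 (1.40 and 1.51), beside 10 rises and 0.82 in knockout. Slc2a1, the glucose transporter GLUT1, went from 9.63 to 12.30 and 12.37 (2.71 ± 0.20), Car9, a carbonic anhydrase induced by low oxygen, from 4.97 to 9.45 and 9.22 (4.36 ± 0.34), and Vegfa, the vessel growth factor, from 8.31 to 11.13 and 11.24 (2.88 ± 0.26). The day 6 arrays lay within 0.3 of each other for all 3. For 4 of the 20 genes the wild-type day 0 array lay at least 2-fold below all other arrays. Among them, knockout day 0 had a mean of 11.13 for Slc2a1 and was at 9.99 and 9.46 for Vegfa and at 10.08 and 9.51 for Slc16a3, which was at 7.89 in wild type. Slc16a3, which exports lactate, rose by 2.80 ± 0.29, more than its 0.65 in knockout (adjusted p of the difference 0.0344, up to 0.122 with 1 array left out). Of 17 endothelial genes 2 rose, among them Cldn5, a tight junction gene of vessels (1.37 ± 0.22), and the median was 0.73 (0.64 and 0.93).

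Cytokines of the interleukin-1 and interleukin-36 family and signals that attract neutrophils rose in part. Of 13 family members 5 rose and 0 fell, with a median of 1.49 (1.64 and 1.10). Il1f9, the array's name for the interleukin-36 gamma gene, went from 7.96 to 11.42 and 11.15 (3.33 ± 0.22, with knockout day 0 at 10.18 and 10.37), Il1f8 from 6.39 to 10.47 and 9.72 (3.71 ± 0.48) and Il1f6 from 6.93 to 10.52 and 9.28 (2.97 ± 0.54). Il1f9 rose by more than in knockout (1.49, adjusted p of the difference 0.0239, up to 0.106 with 1 array left out). Of 11 genes of neutrophil attraction 5 rose, with a median of 1.65 (2.22 and 1.63) beside 0.48 in knockout. The chemokine Cxcl3 went from 5.39 to 10.41 and 9.45 (4.55 ± 0.57), the growth factor Csf3 from 5.50 to 7.73 and 7.42 (2.07 ± 0.23) and Ptgs2, the inducible cyclooxygenase, from 7.73 to 10.36 and 11.12 (3.01 ± 0.36). In knockout Ptgs2 was already at 10.18 and 9.93 on day 0, and the day changes differed (adjusted p 0.0395, up to 0.131 with 1 array left out). Adam8, a metalloprotease of leukocytes and injured epithelia, went from 6.26 to 9.62 and 10.04 (3.57 ± 0.41), with knockout day 0 at 8.85 and 9.75 and an adjusted p of the difference of 0.0315 (up to 0.115).

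Calls among markers of immune cells were uneven between the lists. Over all genes, 3.51% rose and 3.61% fell, and the neutrophil and mast cell lists had larger shares of rises. Of 11 neutrophil markers 3 rose, S100a8, S100a9 and Mmp8, of which the first and second are also made by keratinocytes. The median of the 11 was 1.40 (1.78 in replicate 1 and 1.02 in replicate 2). Of the 11, 7 had an unadjusted p under 0.05, and 6 were at least 2-fold higher and 0 lower in both day 6 arrays. The granule gene Ngp was at 4.56 on day 0 and at 8.18 and 5.93 on day 6, both above day 0 but far apart. Camp was at 5.03 and then at 5.70 and 4.67, on opposite sides of day 0. Mmp8, the neutrophil collagenase, rose by 3.64 ± 0.70 (9.22 in replicate 1 and 8.16 in replicate 2) and lost its call without day 6 replicate 1 (adjusted p 0.0681). Of 16 macrophage and monocyte genes 1 fell (Lyz1, from 11.52 to 7.07 and 8.85), and of 15 Langerhans and dendritic cell genes 2 fell. Cd207, the langerin of Langerhans cells, went from 6.84 to 4.87 and 4.75 (-2.03 ± 0.24), and Cd83, a maturation marker, from 8.14 to 6.09 and 5.75 (-2.22 ± 0.22); both also fell in knockout. Of 7 Skint genes, a family of epidermal membrane proteins, 1 fell: Skint10, from 8.12 to 3.66 and 3.38. Of 12 mast cell genes 4 rose and 1 fell; the proteases among them rose by 2.02 ± 0.23 for Tpsab1 and 1.48 ± 0.20 for Tpsb2, while Cma1 was at 5.52 and then 5.87 and 5.98. Among 14 T cell, 8 B cell, 17 interferon-stimulated and 8 complement genes 0 passed limma's test in either direction. An unadjusted p under 0.05 was found for 3, 0, 2 and 1 of them in that order. With 7.11% of all genes called, lists of this size would hold few calls, so the 0 is not read as a result about these cells. In bulk tissue, fewer cells of a type and less RNA per cell cannot be told apart.

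**Figure D2:**
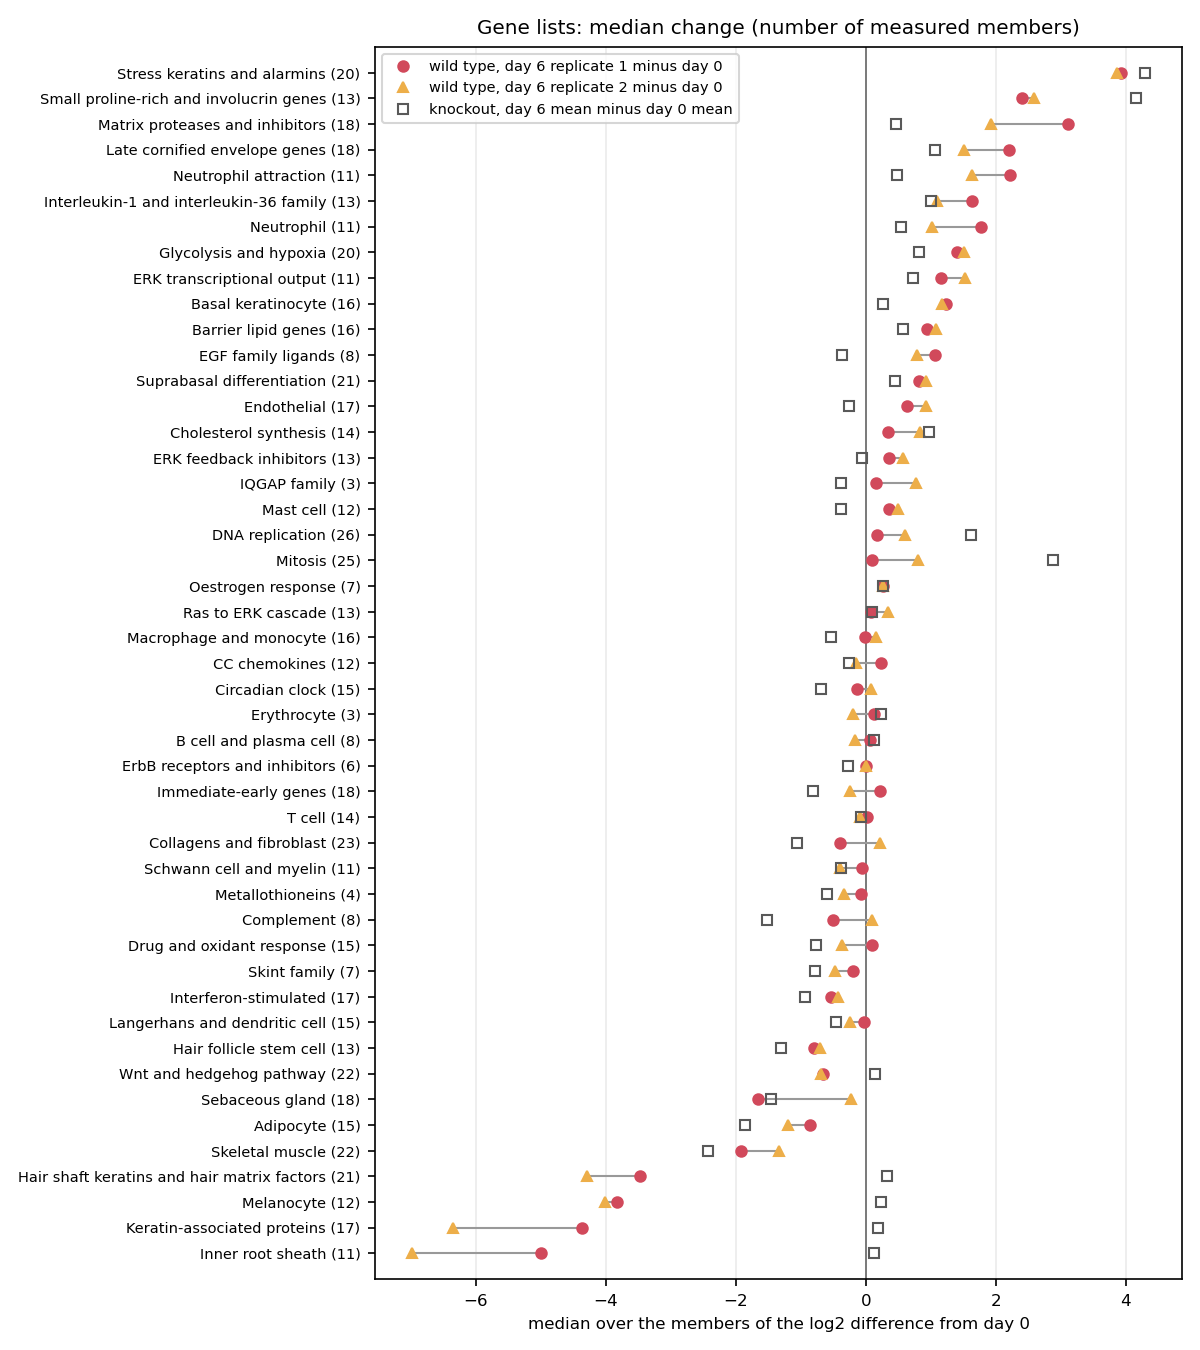
Median log2 difference from day 0 over the measured members of each gene list (number of members in brackets), for wild-type day 6 replicate 1 (red circles) and replicate 2 (yellow triangles) and for the knockout mean (open squares). The vertical line is the median of all genes in wild type, 0.00. Stress keratin and Sprr genes lie on the right in both genotypes, hair and melanocyte lists far to the left in wild type alone, and mitosis far to the right in knockout alone.

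The largest falls were genes of growing hair follicles. Krt28, an inner root sheath keratin, was at 11.35 on the day 0 array and at 3.64 and 3.58 on day 6 (-7.74 ± 0.22, a 213-fold drop, adjusted p 5.12e-05). Both knockout day 0 arrays were at the day 6 level, 3.91 and 4.05. The 15 largest falls ranged from 6.60 to 7.74 in size. For all 15 the wild-type day 0 array lay at least 2-fold above all 6 other arrays, and the difference from knockout was called for each. Their choice by the size of the wild-type fall favours both outcomes. Only 1 of the 15, the hair desmosome cadherin Dsg4, also fell in knockout, from 6.87 and 6.65 to 4.27 and 4.12; in wild type it went from 11.13 to 4.51 and 3.92.

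The upstream sequences of an inner root sheath and a hair shaft keratin are shown because these gene sets carry the falls. Both hold the letters described next, which not all members do. They are chr11:99374904-99375153 (minus strand) for Krt28 and chr11:100050552-100050801 (minus strand) for Krt31, again 250 bases before the start site from RefSeq's GRCm38.p6 genes. Capitals mark matches on either strand to CTTTGA, core letters bound by LEF and TCF factors. These letters and TGANTCA can overlap by the shared TGA.
Krt28: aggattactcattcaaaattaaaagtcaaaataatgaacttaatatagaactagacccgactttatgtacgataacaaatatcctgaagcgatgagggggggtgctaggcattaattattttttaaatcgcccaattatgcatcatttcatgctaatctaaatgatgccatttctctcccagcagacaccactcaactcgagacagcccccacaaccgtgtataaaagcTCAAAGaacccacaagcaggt
Krt31: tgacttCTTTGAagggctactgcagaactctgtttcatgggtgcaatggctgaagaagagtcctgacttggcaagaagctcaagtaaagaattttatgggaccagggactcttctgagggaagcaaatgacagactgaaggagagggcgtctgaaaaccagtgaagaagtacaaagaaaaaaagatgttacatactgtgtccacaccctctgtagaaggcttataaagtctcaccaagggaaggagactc
The letters begin 21 bases before the start site in Krt28 and 244 before it in Krt31. In windows of 300 bases CTTTGA was present in 16.0% of all windows, 14.1% of those of tested genes, 16.8% of those of genes that fell, 12.6% of those of genes that rose, and 6 of the 13 windows found for the 15 largest falls. Among the inner root sheath keratins of the 15, only the window of Krt28 held it, and that of Krt26, for example, did not. A match is again a matter of letters alone.

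Hair shaft genes fell almost throughout. Of 21 measured hair shaft keratins and hair matrix factors, 18 fell and 0 rose, with a median of -3.85 (-3.47 in replicate 1 and -4.28 in replicate 2) beside 0.32 in knockout. Krt31 went from 11.88 to 5.72 and 4.69 (-6.68 ± 0.39), Krt33a from 12.64 to 6.43 and 4.60 (-7.12 ± 0.64) and Krt86 from 11.47 to 5.47 and 4.79 (-6.33 ± 0.30). Replicate 1 was above replicate 2 for all 3, and both were far below day 0. The matrix transcription factors Msx2 and Lef1 fell by 4.23 and 3.14. With 1 array left out, the adjusted p of the difference from knockout reached 0.0511 for Krt33a and 0.0601 for Lef1. Foxn1 (9.31, then 7.57 and 8.59) and Hoxc13 (10.04, then 7.90 and 5.63) were lower on both day 6 arrays without passing the test. The difference of Foxn1 from knockout, where it rose by 2.06, was called, with an adjusted p of 0.0324, up to 0.121 with 1 array left out.

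Of 11 inner root sheath genes 10 fell and 0 rose, with a median of -6.05, which was -4.99 in replicate 1 and -6.98 in replicate 2. Krt71 went from 12.72 to 7.73 and 5.25, Krt27 from 12.38 to 7.49 and 5.17 and Krt26 from 11.34 to 4.27 and 3.81. Tchh, the trichohyalin of the sheath, went from 12.02 to 6.89 and 6.11 (-5.52 ± 0.35). For Krt71 and Krt27, replicate 1 kept a value more than 4-fold above replicate 2, and the adjusted p of their difference from knockout reached 0.121 and 0.140 with 1 array left out. Of 44 measured genes named Krtap, 41 fell and 42 were at least 2-fold lower on both day 6 arrays. Krtap11-1 went from 12.42 to 6.52 and 5.06, Krtap19-1 from 11.51 to 4.87 and 3.62, and Krtap14 from 11.22 to 4.40 and 4.29. Over the list of 17 Krtap genes the mean level was 10.80 on the wild-type day 0 array, 6.38 and 4.66 on the wild-type day 6 arrays, 4.58 and 4.51 on the knockout day 0 arrays and 4.71 and 4.68 on the knockout day 6 arrays. Mt4, a metallothionein of squamous epithelia, fell by 6.51 ± 0.32 from 12.39, and knockout fell by 2.87 from 8.39 and 9.15.

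Pigment genes fell alongside. Of 12 melanocyte genes 11 fell and 0 rose, with a median of -3.92 (-3.83 and -4.01) beside 0.24 in knockout. Tyr, the tyrosinase that starts melanin synthesis, went from 9.63 to 4.53 and 3.97 (-5.38 ± 0.26), Dct from 11.60 to 7.02 and 6.02 (-5.08 ± 0.41) and Pmel, the fibril protein of the pigment granule, from 10.66 to 6.53 and 6.21 (-4.29 ± 0.26). Knockout day 0 arrays were at 4.20 and 4.05 for Tyr, so the wild-type day 0 array alone was high. Mitf, the melanocyte regulator, fell by 1.65 ± 0.24. Sox10, which marks melanocytes and glia, was at 6.19 on day 0 and at 5.93 and 5.78 on day 6. Of the 294 genes that fell with the day 0 array apart, 52 stand in the hair and melanocyte lists. These hold 21 hair shaft, 11 inner root sheath, 17 Krtap and 12 melanocyte genes of the 19937 tested. The day 0 array lay at least 2-fold above all others for 19, 9, 16 and 10 of them in that order. Over all genes tested it did so for 1.60%. The lists were chosen with earlier results known.

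**Figure D3:**
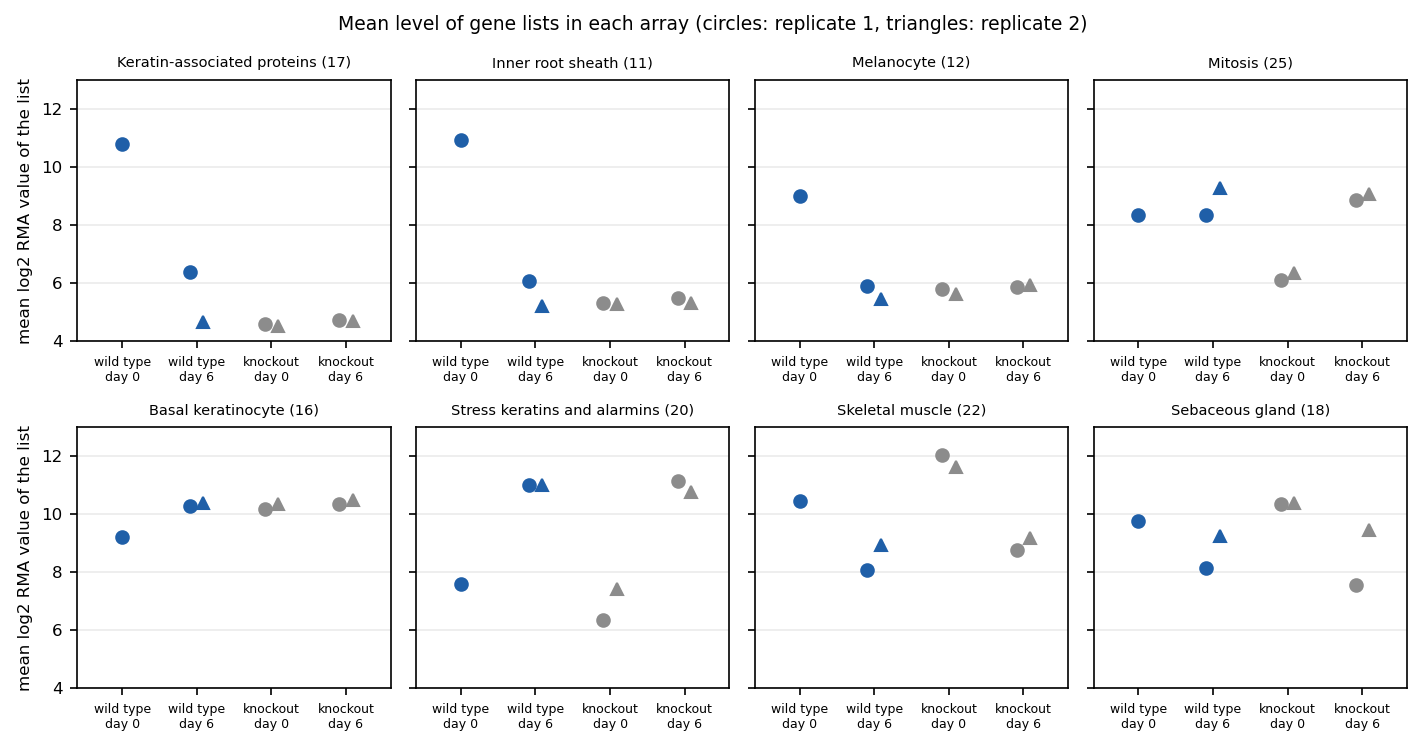
Mean log2 RMA value (vertical axis) of 8 gene lists on each array, by genotype and day; circles are replicate 1 and triangles replicate 2, blue is wild type and grey is knockout. The hair and melanocyte lists are high on the wild-type day 0 array alone, mitosis is low on the knockout day 0 arrays alone, and stress keratins rise in both genotypes.

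Other genes fell in both genotypes. The hair follicle stem cell list, which marks the permanent part of the follicle, had 2 falls among 13. Krt15 went from 10.79 to 7.14 and 7.83 (-3.30 ± 0.48) and fell by 3.58 in knockout. Serpina3b, a serine protease inhibitor gene, went from 10.35 to 4.65 and 4.15 (-5.95 ± 0.30), with -5.92 in knockout. Signals that act between skin and follicle also fell: Bmp2 from 8.99 to 4.90 and 5.29, Bmp4 from 9.65 to 6.81 and 6.86 and Wnt3 from 8.15 to 5.17 and 5.23, all 3 of which fell in knockout too. In all, 7 of 22 Wnt, hedgehog and Bmp genes fell and 1 rose.

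Of 15 adipocyte genes 4 fell and 0 rose, with a median of -1.18 (-0.85 and -1.20), and 11 fell in knockout. Lep, the leptin gene, went from 9.42 to 4.33 and 4.32 (-5.09 ± 0.21), and Adipoq, or adiponectin, from 10.78 to 6.42 and 5.98 (-4.58 ± 0.66). Without day 6 replicate 2 the adjusted p of Adipoq was 0.0516. Of 22 skeletal muscle genes 13 fell and 0 rose, with a median of -1.44 (-1.92 and -1.34), and 21 fell in knockout. Pvalb, the parvalbumin of fast fibres, went from 11.76 to 6.75 and 7.55, Mstn, or myostatin, from 9.44 to 5.01 and 4.94, and Mylpf, a fast myosin light chain, from 10.35 to 7.35 and 8.26. The mean of the muscle list was 10.46 on the wild-type day 0 array and 12.04 and 11.62 on the knockout day 0 arrays.

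Of 18 sebaceous gland genes 1 fell, Mc5r, a melanocortin receptor (from 9.96 to 5.34 and 5.95), and the median was -1.66 in replicate 1 and -0.22 in replicate 2. The arrays differed most on lipid enzymes of the gland, chosen here after their values were seen. Elovl3 was at 10.39 on day 0 and at 4.80 and 10.17 on day 6, Awat1 at 9.35 and then 5.38 and 10.08, and Fa2h at 9.12 and then 6.08 and 10.11. Replicate 1 was low for these genes. Replicate 2 was near the day 0 level for Elovl3 and above it for Awat1 and Fa2h. The knockout day 6 arrays also differed, with replicate 1 the low array (3.94 and 10.30 for Elovl3). Of 23 collagen and fibroblast genes 3 fell and 0 rose: Fap (-3.64 ± 0.26), Col14a1 (-2.95 ± 0.47) and Dpt (-1.59 ± 0.27). Col1a1 was at 10.27 and then at 9.49 and 10.69, whereas the knockout arrays went from 12.86 and 12.88 to 10.52 and 11.71.

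No proliferation gene of 2 lists passed the test in wild type. Of 25 mitosis genes 0 were called by limma (2 had an unadjusted p under 0.05), with a median of 0.34 (0.10 in replicate 1 and 0.80 in replicate 2), while all 25 rose in knockout, with a median of 2.88. Of 26 DNA replication genes 0 passed (5 at the unadjusted level), with a median of 0.37, and 24 rose in knockout. The proliferation marker Mki67 was at 9.30 on day 0 and at 8.37 and 9.89 on day 6; in knockout it went from 7.61 and 7.65 to 9.86 and 10.26. The day change differed between the genotypes for 12 of the mitosis genes, Top2a among them (-0.10 in wild type and 2.66 in knockout, adjusted p of the difference 0.0344, up to 0.123 with 1 array left out), and for 3 replication genes such as Tk1 (0.54 and 2.70, adjusted p 0.00929, up to 0.0511). The mean of the mitosis list was 8.35 on the wild-type day 0 array, 8.34 and 9.26 on the wild-type day 6 arrays, 6.12 and 6.33 on the knockout day 0 arrays and 8.88 and 9.06 on the knockout day 6 arrays. The knockout day 0 arrays are the ones that lie apart. The wild-type day 0 array with the higher mitosis level is also the one with the high hair lists, and the part of the one in the other was not tested.

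**Figure D4:**
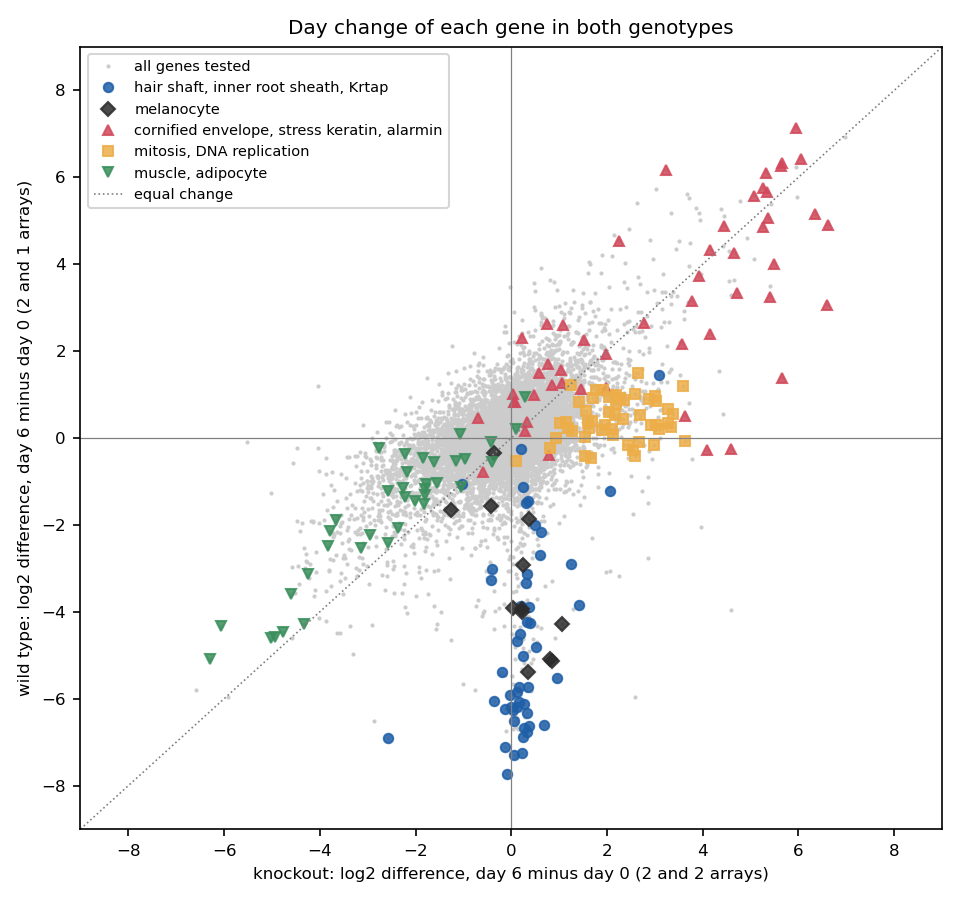
Log2 difference between day 6 and day 0 of each of 19937 genes in wild type (vertical axis) against knockout (horizontal axis), with members of 5 sets of lists coloured and equal change dotted. Cornified envelope and stress genes and muscle and fat genes lie near the dotted line, hair and melanocyte genes along the lower vertical axis, and proliferation genes along the right horizontal axis.

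The largest differences between the genotypes went with unlike day 0 values. Prr9, a proline-rich gene of the epidermal differentiation complex, fell in wild type from 12.30 to 9.16 and 7.52 and rose in knockout from 4.16 and 4.03 to 9.10 and 8.27. The difference of -8.55 (adjusted p 0.00489) stood beside similar day 6 values. Crnn, or cornulin, fell from 12.06 to 6.03 and 6.17 in wild type and rose from 4.64 and 4.34 to 7.35 and 6.79 in knockout (-8.54, adjusted p 0.000351). In the other direction, the complement gene C7 was at 5.39, 4.80 and 5.77 in wild type, while knockout went from 11.06 and 11.10 to 5.54 and 5.57. The muscle actin-binding gene Xirp1 (6.84, 6.31 and 6.88 in wild type) and the muscle receptor kinase Musk (5.26, 5.15 and 5.98) likewise changed by less than 1 log2 unit in wild type and fell in knockout; the adjusted p of Musk's difference reached 0.0902 with 1 array left out. Across all genes, the day changes of the genotypes had a Pearson correlation of 0.493, given as a description, since genes are not independent replicates.

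The 2 day 6 arrays differed from each other more than the knockout pairs did. Their median distance over genes was 0.29, against 0.14 for the knockout day 0 pair and 0.17 for the knockout day 6 pair, and 745 genes (3.74%) were at least 2-fold apart. The fit gives a gene a common error for all groups, drawn in part from the tighter knockout pairs. The wild-type standard errors and adjusted p values may therefore be too small. Replicate 1 alone was at least 2-fold above day 0 for 922 genes and below it for 1084; replicate 2 was above it for 1508 and below it for 1228. Opposite 2-fold differences from day 0 were found for 3 genes: Efcab1 (6.93, then 8.27 and 5.17), Hpgd, which degrades prostaglandins (9.31, then 10.42 and 7.85), and the signalling regulator Rgs1 (6.46, then 7.48 and 5.34). For all 3, replicate 1 was the higher array. Replicate 1 carries the Xist signal, as the day 0 array does, and replicate 2 does not, so sex signal and replicate cannot be told apart among the wild-type arrays.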

How the data were processed

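Per the labels' protocols, RNA was extracted from macerated tissue with a Qiagen RNeasy kit and amplified with a MessageAmp III kit. Each deposited value is a log2 expression level; the submitters' processing notes name RMA and R 2.11.1, and the values, which run from 2.37 to 13.38, fit a log2 scale. RMA corrects background, normalizes arrays by quantiles and summarizes probes. Other settings, batches and the genome build are not given in the sources used here. Arrays have no read depth, and their number limits the precision.

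Of 34760 probe sets, 21640 name 1 gene symbol, 1321 several and 11799 none in the platform table. Each gene was taken from the probe set that names it alone and is brightest on average across all arrays, leaving 19937 genes; 19855 matched RefSeq genes of GRCm38.p6 by gene identifier. Differences were tested two-sided with limma 3.58.1 (lmFit and eBayes) in R 4.3.3, in 1 fit of 4 group means with 3 residual degrees of freedom, Benjamini-Hochberg adjusted over all genes with a threshold of 0.05. Values after ± are moderated standard errors. Before use, the fit was tested on simulated data of known changes, with 200 of 19937 genes changed. For wild type it recovered 2.39% of 2-fold, 73.3% of 4-fold and 97.9% of 16-fold changes. For the difference between genotypes it recovered 0.299%, 37% and 93.3%. Of the simulated calls, 5.26% and 4.42% were false. The simulated errors were independent, normal and equal in spread on all arrays of a gene, with variances drawn from the fit. False shares near the threshold follow from that setting. The real pairs differ in spread, with a median distance of 0.29 for wild-type day 6 and 0.14 and 0.17 for knockout day 0 and day 6. The simulated rates therefore do not measure the error of the real calls.

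The comparison and the 47 gene lists (657 measured members) were chosen with earlier results of these data known. The naming rule covered Iqgap1 to Iqgap3, the 15 largest changes in each direction and the 8 largest differences between genotypes of each sign. It also covered genes with opposite day 6 arrays, fixed cell type markers and the smallest p values of each list. The last were up to 4 per list, or all that pass where 5 or fewer do. Not every gene that the rule selects is named, and the choice among them followed no stated rule. The largest falls shared by both genotypes, and Krt6a, Krt16, Ivl, S100a7a, Col17a1, Fosl1, Mmp3, Mmp13, Msx2, Foxn1, Hoxc13, Mitf, Sox10, Mki67, Top2a, Awat1 and Fa2h, were named after their values were seen. Alternatives were other arrays left out, a replicate block, a Xist term, other variance models, filters, probe set choices, scalings and thresholds. Promoter windows are RefSeq's. Figures were drawn with matplotlib 3.10.9.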

Additional observations from a re-analysis of the deposited data

Results flagged for a closer look

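The day change differed between wild type and knockout, tested with limma's contrast of the 2 changes (wild type minus knockout, log2), for 269 genes in the upward and 350 in the downward direction. Of the genes named in the text, 45 were among them, and 19 of the 45 kept their call under every alternative tried.

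Most of the largest differences were downward, at genes for which the wild-type day 0 array lay at least 2-fold above the other 6 arrays; of those in this paragraph, Foxn1 was the exception. Inner root sheath genes differed by -7.65 (Krt28), -7.35 (Krt26), -6.47 (Tchh), -6.11 (Krt71) and -5.69 (Krt27). Hair shaft genes differed by -6.99 (Krt33a), -6.94 (Krt31), -6.66 (Krt86) and -4.34 (Dsg4), and their transcription factors by -4.55 (Msx2), -3.47 (Lef1) and -3.30 (Foxn1, adjusted p up to 0.121 with 1 array left out). Krtap genes differed by -7.49 (Krtap19-1), -7.13 (Krtap14) and -7.0 (Krtap11-1). Melanocyte genes differed by -5.88 (Dct), -5.73 (Tyr) and -5.35 (Pmel). The squamous genes Prr9 (-8.55), Crnn (-8.54) and Mt4 (-3.64) and the red cell gene Slc4a1 (-1.93, adjusted p up to 0.106 with 1 array left out) were also highest on that array.

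Downward differences were also found for S100a7a (-4.37), Top2a (-2.76), Tk1 (-2.15) and Sprr2f (-1.48), whose knockout day 0 values lay below the wild-type day 0 value.

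Upward differences were found where the wild-type day 0 value lay below knockout day 0. The basal genes Lamb3, Col17a1, Itgb4 and Itga6 differed by 2.46, 1.92, 1.64 and 1.32, the barrier lipoxygenases Aloxe3 and Alox12b by 2.89 and 2.12, and Fosl1 and Ksr1 by 1.93 and 1.70 (for Ksr1 adjusted p up to 0.112 with 1 array left out). Secreted and injury-related genes differed by 3.09 (Adam8), 2.52 (Ptgs2), 1.83 (Il1f9) and 1.80 (Pgf). The lactate exporter Slc16a3 differed by 2.15, the clock gene Nr1d1 by 2.41, the mast cell tryptase Tpsb2 by 1.61 (adjusted p up to 0.112) and Esr1 by 1.33. The complement and muscle genes C7, Xirp1 and Musk differed by 5.42, 4.24 and 3.41, with a fall in knockout and no called change in wild type.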

How the results depend on the processing

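For the 157 genes named in the text no wild-type difference that passed the test reversed under any alternative. Of 117 called, 15 lost the call under at least 1 alternative. This was most often without wild-type day 6 replicate 2, with a term for the arrays with Xist signal, or without a knockout day 6 array. For wild type the Xist term is the same test as leaving out replicate 2, since it compares replicate 1 alone with day 0. Leaving out either array of a knockout pair likewise gives the same wild-type result.

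With 1 array left out at a time, wild-type rises ranged from 479 to 1272 and falls from 561 to 937. Genes past 2-fold in every day 6 array ranged up to 1508 higher (from 922) and 1228 lower (from 1084). Knockout rises ranged from 520 to 1915 and falls from 789 to 2112; upward differences between genotypes ranged from 15 to 528 and downward ones from 128 to 510. Without the genes at which the day 0 array lies apart, an alternative chosen after the data were seen, 486 rises and 425 falls were left. A threshold of 0.1 gave 1159 rises, 1110 falls and 634 upward and 602 downward differences. All probe sets gave 146 upward differences, and genes with a mean of at least 6 gave 210 downward ones. At 1.5-fold, 1563 genes were higher and 1584 lower in both day 6 arrays; at 4-fold, 190 and 294. The share of calls that rose was 49.3%, and 58.1% with arrays centred on their medians.

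List medians ranged, with either day 6 array left out, from 0.10 to 0.80 (mitosis), -6.98 to -4.99 (inner root sheath), -1.66 to -0.22 (sebaceous gland), 1.93 to 3.11 (matrix proteases), -6.35 to -4.36 (Krtap), -1.92 to -1.34 (muscle), 1.63 to 2.22 (neutrophil attraction) and -0.24 to -0.02 (Langerhans and dendritic cell). The Xist term leaves day 6 replicate 1 alone, and gave -4.99, -1.66, 3.11, -4.36, -1.92, 2.22 and -0.02 for inner root sheath, sebaceous gland, matrix proteases, Krtap, muscle, neutrophil attraction and Langerhans lists. Over genes with a mean of at least 6, medians were 3.24 (Sprr), -4.99 (Krtap), 3.01 (neutrophil attraction), 3.69 (neutrophil), -1.24 (Langerhans), 1.26 (mast cell), 0.51 (erythrocyte) and 0.73 (oestrogen response), with fewer genes counted. The cause of the other shifts was not tested.

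With the replicate number as a block, 581 genes rose and 653 fell in wild type. Same-numbered arrays correlated in their deviations from the group means by 0.086, 0.037 and 0.227, so the numbers are not taken to pair arrays. Signal near the silent level limits precision: RMA compresses low values, and a change that begins or ends there is understated. An uncalled gene may still have changed.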

Other observations

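Genes that handle drugs and oxidants moved in both directions. Of 15 measured, 4 rose and 1 fell, with a median of -0.23. Gsta4, a glutathione transferase that acts on lipid peroxidation products, went from 7.67 on the wild-type day 0 array to 12.17 and 12.16 on day 6 replicates 1 and 2 (4.49 ± 0.60). Akr1b8, an aldose reductase, went from 6.84 to 10.54 and 10.77 (3.81 ± 0.48, with knockout day 0 at 8.04 and 9.34) and Nqo1, a quinone reductase, from 6.79 to 9.32 and 9.18 (2.45 ± 0.33). Txnrd1, a thioredoxin reductase, fell from 9.41 to 8.18 and 7.82. All 4 changed in the same direction in knockout and passed the test there. The replicates of day 6 lay within 0.4 of each other for each of these genes.

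Of 15 circadian clock genes 2 rose and 1 fell, with a median of -0.03. Bhlhe40, a repressor of the clock loop that also answers low oxygen, went from 8.35 to 10.17 and 10.17 (1.82 ± 0.18, with knockout day 0 at 9.82 and 9.74), and the repressor Nr1d1 from 7.82 to 9.25 and 9.84 (1.73 ± 0.28). In knockout Nr1d1 was at 10.93 and 11.18 on day 0 and changed by -0.68 (adjusted p of the difference 0.0230, up to 0.0943 with 1 array left out). The time of day at which tissue was taken is not given in the sources used here. Of 7 oestrogen response genes 0 passed limma's test (3 had an unadjusted p under 0.05): the target Greb1 was at 4.38 on day 0 and at 5.13 and 4.83 on day 6, and Esr1, the oestrogen receptor, at 7.43 and then 7.95 and 7.92. The change of Esr1 differed from that in knockout, which was -0.82 (adjusted p 0.0372, up to 0.134).

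Of 11 Schwann cell and myelin genes 1 rose, Mal, which is also an epithelial gene (from 8.07 to 10.69 and 10.38), and of 3 erythrocyte genes 1 fell, Slc4a1 (from 7.31 to 6.08 and 5.58). Of 12 CC chemokines 1 fell, Ccl7 (from 8.91 to 6.87 and 6.49), a call that was lost without day 6 replicate 2 (adjusted p 0.124), without replicate 1 (0.0613) and without either knockout day 0 array (0.0527). Mt1 and Mt2, metallothioneins of most cells, were at 11.62 and 12.39 on day 0 and between 11.75 and 12.50 on day 6.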
